A study of Mus musculus with 8 samples.

Results

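The accessible chromatin of AML246, a line of acute myeloid leukaemia cells from the mouse, was compared between 8 days and 4 days after doxycycline (Dox) was withdrawn. The members are the regions built from the peak lists of those 2 ATAC-seq libraries: every summit on chromosomes 1 to 19, X and Y was extended by 150 bp to each side, and extended summits that overlapped were merged. This gave 55742 regions, against 68800 when the lists of all 8 libraries of the series were merged in the same way. For these 2 libraries, open means that at least 1 summit of the library's list lay in the region. For the other 6 libraries, open or called means that a summit of their list, extended by 150 bp, overlapped the region. Such a summit could lie up to 150 bp outside the region. The cells of both libraries had first been kept on 0.1 µg/mL Dox for 12 days, which per the labels restored PU.1, and were then cultured without the drug for 8 or 4 days, during which PU.1 was again knocked down. All cells grew in IL-3, both libraries were made from total viable cells, and each was made from 50000 sorted cells. The other 6 libraries were day 0 (no Dox), day 4, day 8 and day 12 on Dox, a CD11b-high sort of day 12, and 12 days off Dox. There was 1 library per group, so no replicate error exists and the comparison carries no test. Intervals are exact Clopper-Pearson 95% intervals. They take in only the error of counting and treat regions as independent, which neighbours are not. The labels do not say whether the line is 1 clone, whether the time points came from 1 culture, or how far PU.1 itself had dropped at either time.

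PU.1, encoded by Spi1, is a transcription factor of the ETS family that is required for the development of macrophages, granulocytes and B cells. It binds a purine-rich sequence at promoters and enhancers, often beside C/EBP, RUNX, IRF and AP-1 factors, and can bind sites in closed chromatin and open them. Low PU.1 activity is a recurrent feature of acute myeloid leukaemia, in which blasts fail to mature. ATAC-seq marks stretches of DNA that a transposase can reach, and a summit is the base where a peak of such insertions is highest.

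Sequences are shown first for start-site windows, the stretches from 250 bases before to 50 bases after a RefSeq transcription start site (GRCm38.p6, the build also called mm10), because these were the windows for which sequence was at hand. Only windows whose library-only region had no summit of the other list within 1 kb were eligible. The region's summit also had to lie within 250 bp of the start site. Among eligible windows, the first 3 overlap the 8-days-only regions with the highest scores at 8 days, with 1 window per summit. The next 3 overlap the 4-days-only regions with the highest scores at 4 days. Capitals mark the letters of any of 10 motifs that were searched on both strands, which include PU.1 (GAGGAAGT) and the shorter ETS core (GGAAGT) that it contains. The Lpxn window at chr19:12795943-12796242 (plus strand) holds none of the 10. Lpxn encodes leupaxin, an adaptor protein of focal adhesions, and its window overlaps that of the divergent gene Zfp91, which shares the same summit.
Lpxn: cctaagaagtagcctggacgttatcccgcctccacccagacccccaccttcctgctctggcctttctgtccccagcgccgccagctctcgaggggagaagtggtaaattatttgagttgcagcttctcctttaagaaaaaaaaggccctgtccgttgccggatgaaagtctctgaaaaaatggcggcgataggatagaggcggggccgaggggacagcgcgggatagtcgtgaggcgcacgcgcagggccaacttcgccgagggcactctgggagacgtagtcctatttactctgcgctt
The Zfp668 window at chr7:127876787-127877086 (minus strand) belongs to a zinc-finger gene and holds several ETS matches and 1 E-box (CAGCTG).
Zfp668: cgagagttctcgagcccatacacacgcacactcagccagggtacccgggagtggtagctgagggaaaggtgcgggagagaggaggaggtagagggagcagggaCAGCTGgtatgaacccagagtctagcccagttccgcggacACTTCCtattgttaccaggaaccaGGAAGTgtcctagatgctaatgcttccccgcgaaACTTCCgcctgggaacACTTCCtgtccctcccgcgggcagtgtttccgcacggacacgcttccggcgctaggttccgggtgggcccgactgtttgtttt
The Ypel5 window at chr17:72837286-72837585 (plus strand) belongs to the gene of a ubiquitin ligase subunit and is the most GC-rich of the 3, at 76.3% GC with 41 CpG.
Ypel5: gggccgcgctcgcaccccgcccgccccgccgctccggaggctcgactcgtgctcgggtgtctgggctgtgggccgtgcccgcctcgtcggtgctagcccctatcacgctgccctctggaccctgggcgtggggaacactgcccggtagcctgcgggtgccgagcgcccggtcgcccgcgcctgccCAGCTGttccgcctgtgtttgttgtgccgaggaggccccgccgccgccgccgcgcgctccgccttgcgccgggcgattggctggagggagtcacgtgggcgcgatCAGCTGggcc
The Spata3 window at chr1:86021695-86021994 (plus strand) belongs to a spermatogenesis-associated gene and holds an E-box and a RUNX match (TGTGGT).
Spata3: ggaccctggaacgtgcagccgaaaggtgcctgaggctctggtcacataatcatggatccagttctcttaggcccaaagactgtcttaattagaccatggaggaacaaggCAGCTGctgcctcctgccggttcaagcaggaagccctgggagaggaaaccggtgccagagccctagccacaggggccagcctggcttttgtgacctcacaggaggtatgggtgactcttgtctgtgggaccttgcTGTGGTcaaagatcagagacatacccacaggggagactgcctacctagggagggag
The Rtl8a window at chrX:53643714-53644013 (minus strand) belongs to a gene derived from a retrotransposon and holds a RUNX and an ETS match, both read on the opposite strand.
Rtl8a: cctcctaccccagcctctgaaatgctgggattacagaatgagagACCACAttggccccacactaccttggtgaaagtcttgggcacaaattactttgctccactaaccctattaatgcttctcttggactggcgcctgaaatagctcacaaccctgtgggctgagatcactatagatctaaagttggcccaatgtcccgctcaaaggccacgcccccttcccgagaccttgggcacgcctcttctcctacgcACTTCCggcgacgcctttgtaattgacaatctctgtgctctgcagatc
The Sytl4 window at chrX:133981763-133982062 (minus strand) belongs to the gene of a synaptotagmin-like protein of vesicle release and holds none of the motifs.
Sytl4: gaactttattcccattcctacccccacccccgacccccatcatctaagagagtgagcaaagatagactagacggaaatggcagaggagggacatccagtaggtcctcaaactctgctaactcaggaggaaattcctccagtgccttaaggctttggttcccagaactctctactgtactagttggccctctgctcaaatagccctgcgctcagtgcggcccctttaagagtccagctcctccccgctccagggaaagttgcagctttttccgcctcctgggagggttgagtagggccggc
Another 2 windows of the 4-days-only class are shown for their content. B430306N03Rik at chr17:48315912-48316211 (plus strand) was the only 1 of the 12 top-scoring eligible windows of either class with the PU.1 letters. It also holds an IRF match (GAAANNGAA) on the opposite strand.
B430306N03Rik: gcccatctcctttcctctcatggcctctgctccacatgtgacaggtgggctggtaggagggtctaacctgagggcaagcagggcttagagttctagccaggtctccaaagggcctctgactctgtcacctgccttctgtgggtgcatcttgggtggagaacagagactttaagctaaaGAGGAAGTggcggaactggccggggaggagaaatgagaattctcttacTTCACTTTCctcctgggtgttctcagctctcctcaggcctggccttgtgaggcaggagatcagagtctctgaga
Il5ra at chr6:106748988-106749287 (minus strand) encodes the interleukin-5 receptor alpha chain of eosinophils and holds an E-box, an AP-1 match (TGANTCA) and a GATA match (AGATAA).
Il5ra: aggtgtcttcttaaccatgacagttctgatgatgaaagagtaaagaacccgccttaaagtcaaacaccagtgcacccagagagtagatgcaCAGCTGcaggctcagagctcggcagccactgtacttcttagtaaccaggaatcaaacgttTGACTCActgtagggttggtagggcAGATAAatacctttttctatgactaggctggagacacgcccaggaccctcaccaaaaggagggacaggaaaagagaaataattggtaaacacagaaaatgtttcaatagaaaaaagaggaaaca

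These windows also show how the calls ran over the whole course, in scores that are −log10 values of the authors' peak caller and are compared only for presence and rank within a list. The region at the Lpxn start site scored 26.3 at 8 days off and had no summit at 4 days off, where the nearest summit lay 1370 bp away. It was also called at day 0 (27.3), day 8 (28.9), day 12 (17.0) and in CD11b-high cells (21.4), and was not called at day 4 or 12 days off. The region at Il5ra had no summit at 8 days off and scored 14.0 at 4 days off, and it was called in every other list except day 4, with scores of 3.29 to 8.51. The region at B430306N03Rik had no summit at 8 days off and scored 17.0 at 4 days off, 9.08 at day 4, 22.2 at day 8, 13.3 at day 12, 10.4 in the CD11b-high sort and 3.82 at 12 days off, but not at day 0. All 3 regions were thus also called in other lists, but this was not so of every such window: the region at the Scg2 start site scored 12.4 at 8 days off and was called in none of the other 7 lists.

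Most regions were open at both times, and the 4-day library held more regions of its own. Of the 55742 regions, 5203 were open only at 8 days off (9.33%, interval 9.09 to 9.58), 14730 only at 4 days off (26.4%, 26.1 to 26.8) and 35809 at both (64.2%, 63.8 to 64.6). The list at 8 days off was shorter, with 41427 summits used against 51060 at 4 days off, and list length moves with sequencing depth, which no source used here gives. The 2 lists were therefore also compared with equal numbers, by keeping the 41427 top-score summits at 4 days. The library-only classes then had nearly the same size, with 8047 regions only at 8 days off (16.3%) and 8234 only at 4 days off (16.7%), and 32984 of 49265 regions were shared (67%). Depth and a true difference in the number of open regions cannot be told apart here. In a bulk library, fewer cells with an open region and a less open region in every cell cannot be told apart either. In this trimmed comparison 2844 of the 8047 regions called 8-days-only held a lower-scoring summit of the full list at 4 days (35.3%), whereas none of the 8234 called 4-days-only did so for 8 days, because that list was not trimmed.

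Regions of a high score were shared almost completely. In the top decile of regions at 8 days off by score, 98.1% were also open at 4 days off, and in the top decile at 4 days off, 98.2% were also open at 8 days off. In the lowest decile the shares were 60.9% of the regions at 8 days and 25.4% of those at 4 days. Library-only regions had low scores in their own list: the median was 6.11 for 8-days-only regions and 6.20 for 4-days-only regions, whereas shared regions had medians of 13.5 at 8 days and 18.3 at 4 days. A score of at least 10 was reached by 941 of the 8-days-only regions (18.1%) and 2726 of the 4-days-only regions (18.5%). Where both libraries had a summit in a region, the summits lay a median of 21 bp apart, and 73.2% lay within 50 bp.

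**Figure D1:**
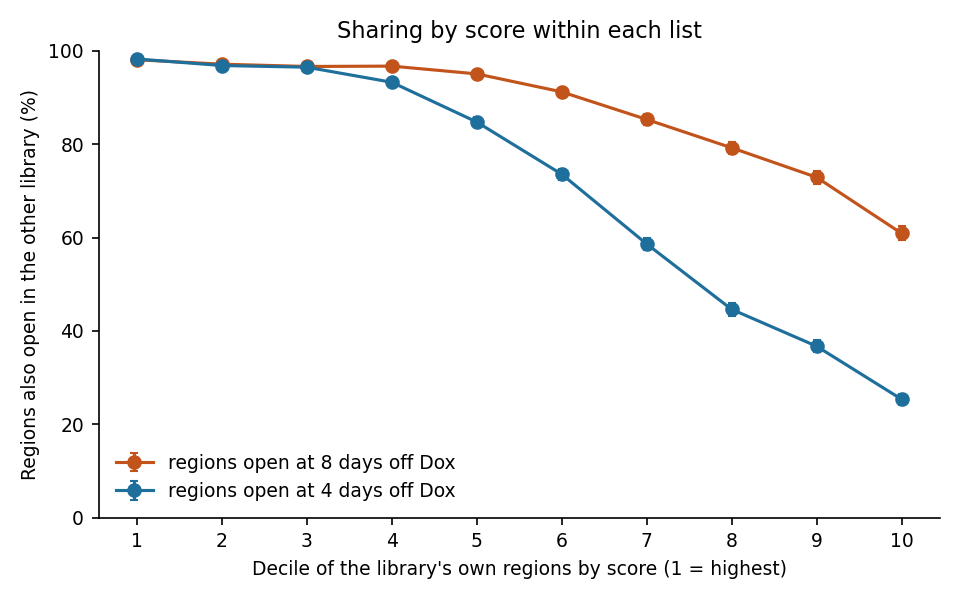
Share of each library's open regions (vertical axis, %) that were also open in the other library, by decile of the library's own regions ranked by score (horizontal axis, 1 = highest). Orange points are regions open at 8 days off Dox, blue points regions open at 4 days off Dox, and bars are exact 95% intervals of counting error. Both curves start near 98% and end at 60.9% for 8 days off and 25.4% for 4 days off.

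Some library-only regions had a summit of the other list close by. A summit of the 4-day list lay 301 to 600 bp away from 25.4% of the 8-days-only regions, and a summit of the 8-day list lay that near to 12.0% of the 4-days-only regions. No summit of the other list lay within 1 kb of 3407 of the 8-days-only regions (65.5%) and 12056 of the 4-days-only regions (81.8%). Flt3, the receptor tyrosine kinase of lymphoid and dendritic progenitors, is a clear case. Its region at chr5:147389041-147389341 scored 26.4 at 8 days off and was not called at 4 days off, while the neighbouring region at chr5:147388711-147389011 was not called at 8 days off and scored 25.5 at 4 days off, with the summits 330 bp apart. The first of these was called at day 0, 4 and 8 and not at day 12, and the second at day 12 and not at day 0, 4 or 8. In the CD11b-high sort and at 12 days off both regions counted as open. The same summit can count for both neighbours, so separate calls are not shown there. Chd7, a chromatin remodeller, had the same kind of pair 330 bp apart, with 27.0 at 8 days off in the region at chr4:8690263-8690563 and 20.8 at 4 days off in the region at chr4:8689933-8690233.

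The 2 library-only classes differed in where else they were open. Taken over all positions, regions only at 8 days off were more often open at day 0 and at 12 days off, before and long after the Dox course, and regions only at 4 days off were more often open at day 8, at day 12 and in CD11b-high cells. At day 0, 35.5% of the 8-days-only regions were open (interval 34.2 to 36.8), against 19.2% of the 4-days-only regions (18.5 to 19.8). At 12 days off, 28.1% of the 8-days-only regions were open (26.9 to 29.4), against 12.8% of the 4-days-only regions (12.3 to 13.4). The order was the other way round at day 8 on Dox, with 32.8% of the 8-days-only and 44.0% of the 4-days-only regions. It was also so at day 12, with 21.2% of the 8-days-only (20.1 to 22.4) and 25.2% of the 4-days-only regions (24.5 to 25.9), and in CD11b-high cells, with 21.4% of the 8-days-only and 26.8% of the 4-days-only regions. Day 4 on Dox lay between these ends, with 28.5% of the 8-days-only and 22.4% of the 4-days-only regions. Shared regions were open in 71.8% to 86.4% of cases in each of the 6 lists.

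**Figure D2:**
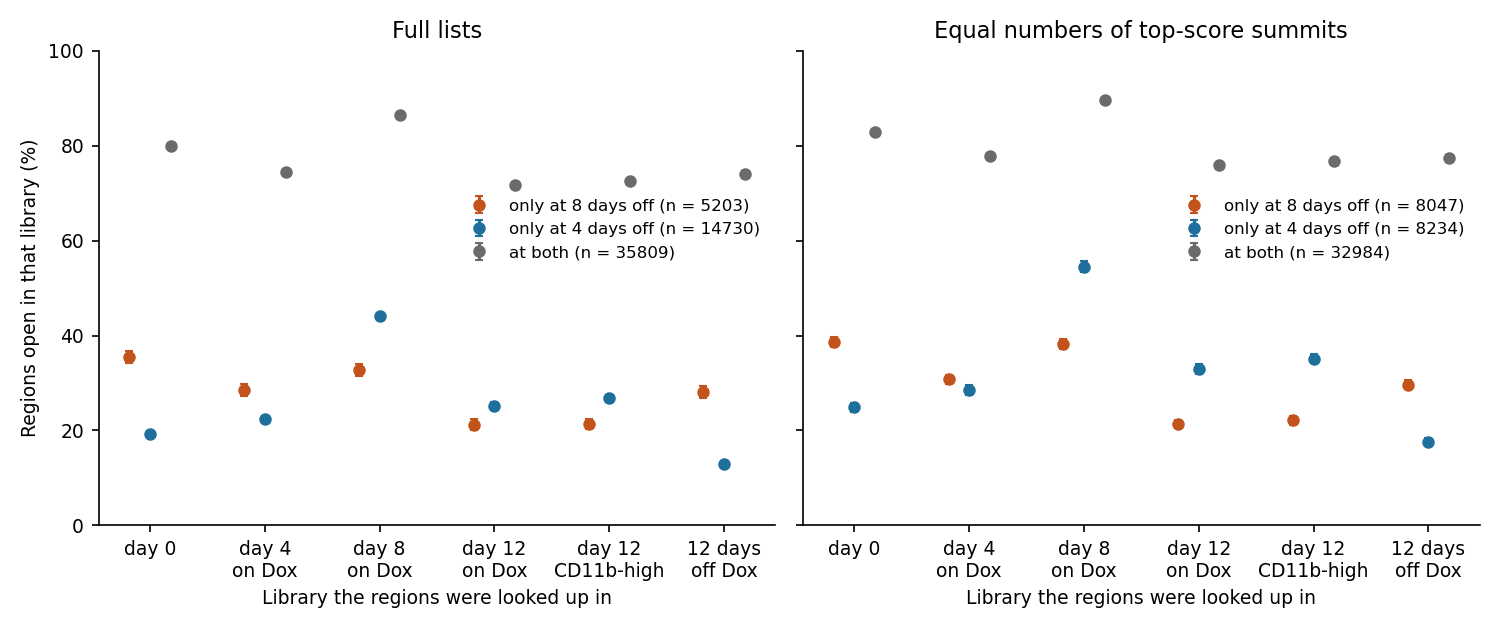
Share of regions open only at 8 days off (orange), only at 4 days off (blue) and at both (grey) that were open in each of the other 6 libraries (horizontal axis), from the full lists (left) and from equal numbers of top-score summits (right); bars are exact 95% intervals of counting error. Orange points lie above blue ones at day 0, day 4 and 12 days off, and below them at day 8, day 12 and in the CD11b-high sort, in both panels.

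With equal numbers of top-score summits the gap at day 12 was wider, but the classes were then less alike in score. Trimming took low-scoring summits from the 4-day list only, and the median own score was 6.11 in 8-days-only and 8.29 in 4-days-only regions. The 4-days-only share was above that of the full lists at day 0 and 12 days off too. The part of trimming in the wider gap was not tested. At day 12, 21.3% of the 8-days-only and 32.9% of the 4-days-only regions were open, in CD11b-high cells 22.1% and 35.1% of these classes, and at day 8 on Dox 38.1% and 54.5%. At day 0 the shares were 38.6% of the 8-days-only and 24.9% of the 4-days-only regions, and at 12 days off 29.6% and 17.5%. When every other list was limited to its 31867 top-score summits, day 0 stood at 29.4% of the 8-days-only and 14.3% of the 4-days-only regions and day 12 at 18.3% and 21.1%. Day 8 then stood at 16.7% of the 8-days-only and 21.3% of the 4-days-only regions, the same order as in the full lists.

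The order on Dox depended on distance from start sites and from other summits. Over 1 kb from any RefSeq start site, 15.9% of 4054 8-days-only regions were open at day 12, against 24.6% of 12493 4-days-only regions. Within 1 kb of a start site the order was turned, with 42.4% of 1013 8-days-only regions and 29.4% of 1749 4-days-only regions. In the CD11b-high sort it was turned too, with 39.2% of the 8-days-only and 30.4% of the 4-days-only regions near start sites, and at day 8 the shares there were 41.7% and 41.2%. At day 0 the 8-days-only class was higher both near start sites (43.4%, against 26.1% of the 4-days-only regions) and away from them (33.5%, against 18.2%). Among regions that scored at least 10 in their own list the day-12 order was also turned when all were taken, at 57.0% of the 8-days-only and 51.9% of the 4-days-only regions. It was not turned among the 271 8-days-only and 1837 4-days-only regions of that score with no summit of the other list within 1 kb: 26.2% of the 8-days-only regions were open at day 12 (21.1 to 31.9), against 48.1% of the 4-days-only regions (45.8 to 50.4). In those strong, isolated regions day 0 stood at 62.0% of the 8-days-only and 29.0% of the 4-days-only class, day 8 at 55.7% and 72.9%, and 12 days off at 41.3% and 19.3%.

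The same contrast can be read from regions that distinguish the start of the course from its end on Dox. Of the 8-days-only regions that were open at only 1 of day 0 and day 12, 1267 of 1792 were open at day 0 (70.7%, 68.5 to 72.8). Of the 4-days-only regions of that kind, 1855 of 4595 were open at day 0 (40.4%, 38.9 to 41.8). Of the shared regions of that kind, 5933 of 8960 were open at day 0 (66.2%, 65.2 to 67.2), nearer to the 8-days-only than to the 4-days-only share. With equal numbers the shares were 72.9% of the 8-days-only, 39.2% of the 4-days-only and 64.7% of the shared regions. Among library-only regions that scored at least 10 in their own list they were 58.0% of the 8-days-only (53.1 to 62.9) and 29.3% of the 4-days-only regions (26.8 to 31.9), so the 8-days-only share then lay below that of the shared regions. Over the 20 chromosomes other than Y the share ranged in 8-days-only regions between 53.3% on chromosome X and 77.9% on chromosome 4, and in 4-days-only regions between 24.4% on chromosome 12 and 49.5% on chromosome 17, so the ranges of the 2 classes did not overlap.

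Single patterns over the whole course were rarer. Regions open at day 0 and at 12 days off and in none of the 4 libraries on Dox made up 160 of the 8-days-only regions (3.08%) and 92 of the 4-days-only regions (0.625%). The opposite pattern, open in all 4 libraries on Dox and at neither day 0 nor 12 days off, was held by 52 of the 8-days-only regions (0.999%) and 733 of the 4-days-only regions (4.98%). No other list held 1757 of the 8-days-only regions (33.8%) and 5453 of the 4-days-only regions (37.0%). Of the shared regions, 18115 were open in all 6 other lists (50.6%) and 1431 in none (4.00%).

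Shared regions moved in rank in the same sense. Each shared region was ranked by score among the 35809 within each library, and the rank at 4 days was taken from the rank at 8 days, in percentile points. Regions called at day 0 but missing at day 12 ranked a median of 5.06 points higher at 8 days than at 4 days, and 61.3% of 5933 were higher. Regions called at day 12 but missing at day 0 had a median of −7.21 points, and 35.4% of 3027 ranked higher at 8 days. The 22669 regions open at both had a median of 0.01 points. Ranks correlated across the 35809 shared regions with a Spearman rho of 0.838, which describes these 2 lists only.

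**Figure D3:**
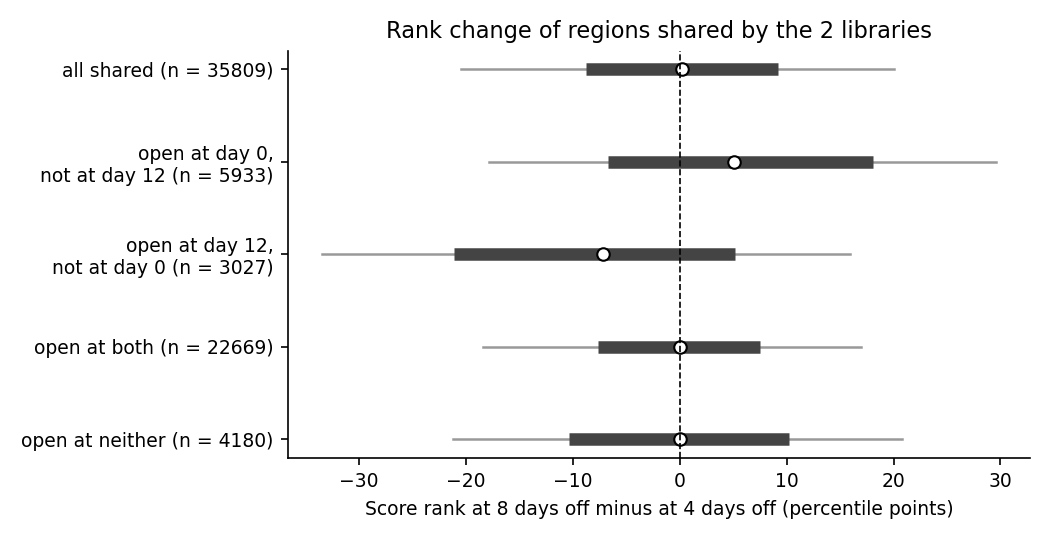
Change in score rank of regions shared by the 2 libraries, as rank at 8 days off Dox minus rank at 4 days off Dox in percentile points (horizontal axis), by whether the region was open at day 0 and day 12. Circles are medians, thick bars the middle 50% and thin lines the 10th to 90th percentile of regions. The median is 5.06 for regions open at day 0 only and −7.21 for regions open at day 12 only.

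By list overlap, the pair was among the closest of the series. With 31867 top-score summits per list, 67.3% of the merged regions of 8 and 4 days off were shared, the second highest of 28 pairs. The highest was 8 days off with day 0 (67.5%), and 8 days off with 12 days off reached 66.6%. The library at 4 days off shared 61.6% with day 0, 64.0% with day 8 on Dox and 60.6% with day 12, whereas the library at 8 days off shared 60.2% with day 8 and 56.6% with day 12. These pairs share libraries and are not independent.

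Library-only regions lay in different parts of genes. Within 1 kb of a start site lay 19.99% of the 8-days-only regions (18.9 to 21.1), 12.3% of the 4-days-only regions (11.7 to 12.8) and 28.2% of the shared regions. Inside a protein-coding gene and over 1 kb from a start site lay 39.4% of the 8-days-only and 49.1% of the 4-days-only regions. With equal numbers, 17.0% of the 8-days-only and 13.2% of the 4-days-only regions lay within 1 kb of a start site. Among chromosomes, chromosome 4 had the highest share of 8-days-only regions outside Y, with 459 of 3841 (12.0%, 10.9 to 13.0) and 20.2% with equal numbers, and its share of 4-days-only regions was the lowest on both counts outside Y, at 21.9% and 12.8%. Chromosome 16 had the lowest 8-days-only share, at 7.08% in the full lists and 12.7% with equal numbers.

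The start-site windows allowed the letters to be counted. Of 21238 windows of 17470 genes, 343 overlapped 8-days-only regions and no other class, and 505 only 4-days-only regions. A shared region was overlapped by 8876 windows, and no region by 11439. The summit itself could lie outside the window. The PU.1 letters, as printed in the B430306N03Rik window, stood in 1.75% of the 8-days-only windows (0.645 to 3.77) and 4.75% of the 4-days-only windows (3.07 to 6.99), beside 3.11% of shared windows and 3.13% of all. The ETS core stood in 18.95% of the 8-days-only (14.9 to 23.5) and 28.5% of the 4-days-only windows (24.6 to 32.7), beside 30.7% of shared windows and 24.8% of all. The RUNX letters stood in 7.58% of the 8-days-only and 13.5% of the 4-days-only windows, beside 15.0% of all. With equal numbers the ETS core stood in 19.3% of the 8-days-only and 29.7% of the 4-days-only windows, and the PU.1 letters in 1.72% and 4.75%. Median CpG counts were 22 in the 8-days-only and 16 in the 4-days-only windows, at GC contents of 61.3% and 60.0%, so base composition also differed. Its part in the motif shares was not tested. GATA, AP-1 (TGANTCA), C/EBP (TTGCNNAA), IRF, E-box, CTCF (CCACNAGG) and MYB (AACNGTT) letters had intervals that overlapped between the classes, as did those of PU.1 and RUNX, and the intervals of the ETS core did not. A match is a string of letters and not a bound site.

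Each region went to the protein-coding gene closest to it, if that lay within 100 kb. Of the 52711 regions with a gene, 9.20% were 8-days-only and 26.2% 4-days-only. With equal numbers these backgrounds were 16.1% and 16.6%. The level of a gene's RNA was not measured, and an assigned region need not act on that gene. For the labelled cell type, only regions within 1 kb of a marker gene's span were counted, which is narrower than the assignment above. Spi1 had 5 regions within 1 kb of its span, 4 open at 8 days and 5 at 4 days, Cebpa had 2, open at both times, Myb 6, with 6 open at 8 days and 4 at 4 days, and Ptprc, the pan-leukocyte gene CD45, 5, with 2 at 8 days and 5 at 4 days. Mpo, the myeloperoxidase of granulocyte precursors, had none within that distance, though 1 region farther off was assigned to it and open at both times. Alb, Krt5 and Neurod1 of other tissues had none, while Myod1 had 1 open at both.

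At Spi1 itself both times shared 4 of the gene's 7 regions. The region at chr2:91081180-91081480, 1044 bp outside the gene, was not called at 8 days off and scored 4.73 at 4 days off, and it was called at day 4, 8 and 12 and in CD11b-high cells but not at day 0 or 12 days off. A region at chr2:91078650-91078950 scored 4.30 at 8 days off and was called in no other list. Itgam, which encodes CD11b, had no 8-days-only region and 1 4-days-only region of score 4.33, beside 3 shared ones, but 1 8-days-only and 0 4-days-only regions with equal numbers. Spi1 had 1 8-days-only and 2 4-days-only regions, but 1 and 0 with equal numbers. Known PU.1 targets, such as receptors and signalling proteins of macrophages, were looked up for 22 genes. Of their 86 regions, 8 were 8-days-only (9.30%, 4.10 to 17.5) and 18 were 4-days-only (20.9%, 12.9 to 31.0), beside backgrounds of 9.20% and 26.2%. With equal numbers they were 17 of 79 (21.5%, 13.1 to 32.2) and 9 (11.4%, 5.34 to 20.5), beside 16.1% and 16.6%. Each interval included its background.

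Growth factor receptors gave few regions each. Kit, the stem cell factor receptor, had at chr5:75575660-75575960, 819 bp from a start site, a region that was not called at 8 days off and scored 32.4 at 4 days off. It was also called at day 12 (26.1), in the CD11b-high sort (17.2) and by 12 days off (20.5), with a summit at 8 days 874 bp away. Over all its regions Kit had 1 8-days-only and 3 4-days-only ones, or 2 and 2 with equal numbers. Csf1r, the receptor for macrophage colony-stimulating factor, had a single region, called at 4 days off (4.49) and 12 days off (4.38) and not at 8 days off. Il5ra was described with its sequence above. The eosinophil list to which it belongs had 1 8-days-only (5%, 0.127 to 24.9) and 6 4-days-only regions (30%, 11.9 to 54.3) of 20. With equal numbers it had 2 (10%, 1.23 to 31.7) and 6 (30%, 11.9 to 54.3) of 20. Each interval included its background, 9.20% and 26.2%, or 16.1% and 16.6% with equal numbers. The list's other members with library-only regions were Ear6, an eosinophil-associated ribonuclease, with 0 and 3, and Alox15, the arachidonate 15-lipoxygenase, with 1 and 2. Epx, Ccr3, Siglecf and Ear1 had only shared regions.

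The transcription factor genes lay near the background for 4-days-only regions. In the list of 23 myeloid factors, 10 of 172 regions were 8-days-only (5.81%, 2.82 to 10.4) and 52 were 4-days-only (30.2%, 23.5 to 37.7), beside backgrounds of 9.20% and 26.2%. Over all 15589 genes with a region, 1693 had more 8-days-only regions, 6598 more 4-days-only regions and 7298 were even. No gene of the list had more 8-days-only than 4-days-only regions, 15 had more 4-days-only ones and 8 were even. With equal numbers 5 genes had more 8-days-only and 7 more 4-days-only regions, with 17 and 21 of 141 regions (12.1% and 14.9%, beside 16.1% and 16.6%). Etv6, an ETS-family repressor, had 0 8-days-only and 7 4-days-only regions, and with equal numbers 0 and 2. Of the 7, 6 were open at day 8 on Dox and 0 at day 0, beside 44.0% and 19.2% of all 4-days-only regions. Runx1, a partner of PU.1 in blood development, had 0 and 7, with scores of 2.57 to 7.23, and with equal numbers 0 and 2. Cebpe, a factor of late granulocyte maturation, had 0 and 2, both called in CD11b-high cells and not at day 0, but 1 and 0 with equal numbers. Cebpa, the C/EBP factor of granulocyte commitment, had neither, and its 4 regions were shared, but 1 was 8-days-only with equal numbers. Irf8, a monocyte and dendritic cell factor, had 0 and 1, Gata2, a stem and mast cell factor, 1 and 2, and Myc, the growth regulator, 0 and 2. With equal numbers Irf8 and Gata2 had the same counts and Myc 0 and 0. Of 3 ETS-family genes in other lists, Fli1 had 0 and 6, or 0 and 4 with equal numbers. Erg had 4 and 6 and Ets1 1 and 2, but with equal numbers Erg had 5 and 4 and Ets1 2 and 1.

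A few factor genes leaned the other way. Foxo1, a forkhead factor held back by growth factor signalling, had 6 8-days-only and 1 4-days-only region in the full lists and the same counts with equal numbers. Of those 6, 3 were open at day 0, 5 at day 8 on Dox and 0 at day 12, in CD11b-high cells or at 12 days off. The highest, at chr3:52196351-52196651, scored 11.7 at 8 days off and was not called at 4 days off, and had 7.43 at day 0, 11.1 at day 4 and 8.98 at day 8. Bach2, a repressor of B cell and progenitor programmes, had 2 8-days-only and 0 4-days-only regions, or 4 and 0 with equal numbers. Myb, a factor of blood progenitors, had 3 and 1. The 13 B cell genes as a list had 5 8-days-only (21.7%, 7.46 to 43.7) and 2 4-days-only regions (8.70%, 1.07 to 28.04) of 23, and 7 and 2 with equal numbers. Both full-list intervals included their backgrounds, 9.20% and 26.2%. Pax5, Ebf1 and Cd22 had 1 8-days-only region each, while Blk had 1 4-days-only region. Of the 5 8-days-only regions, 3 were open at day 0 and 0 at day 12, beside 35.5% and 21.2% of all 8-days-only regions. Both 4-days-only regions were open at day 12 and not at day 0, beside 25.2% and 19.2% of all 4-days-only regions open at these times. Cd79a, Cd79b, Ms4a1, Rag1 and Vpreb1 had no region in either library.

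Genes of lysosomes and of the phagocyte oxidase had a lower 8-days-only share than the backgrounds of 9.20% and, with equal numbers, 16.1%. Of 81 regions, 2 were 8-days-only (2.47%, 0.300 to 8.64) and 20 were 4-days-only (24.7%, 15.8 to 35.5), and with equal numbers 3 of 72 (4.17%, 0.868 to 11.7) and 11 (15.3%, 7.88 to 25.7). In the full lists 2 of the 20 genes had more 8-days-only regions, 14 had more 4-days-only regions and 4 were even, where genes with more 4-days-only regions were also the more numerous over all genes. The 2 on the 8-day side were Mitf, a regulator of lysosomal genes, and Ncf1, an oxidase subunit, with 1 region each. Ctsd, the protease cathepsin D, had 0 8-days-only and 3 4-days-only regions, of which the one at chr7:142397985-142398285 was not called at 8 days off, scored 10.8 at 4 days off, and was called at day 4, 8 and 12 and in CD11b-high cells. Ctsl, cathepsin L, and Gpnmb, a membrane glycoprotein of macrophages, had 0 and 2 each, or 0 and 1 for Ctsl and 1 and 1 for Gpnmb with equal numbers, and the oxidase genes Cybb and Ncf4 0 and 1 each. Of the list's 20 4-days-only regions, 10 were open at day 8, 9 at day 12, 10 in CD11b-high cells, 3 at day 0 and 2 at 12 days off. The shares over all 4-days-only regions were 44.0% at day 8, 25.2% at day 12, 26.8% in CD11b-high cells, 19.2% at day 0 and 12.8% at 12 days off.

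The cell cycle list had 3 8-days-only regions of 104 (2.88%, 0.599 to 8.20) and 28 4-days-only ones (26.9%, 18.7 to 36.5). The first interval lay below its background of 9.20%, and the second included its background of 26.2%. With equal numbers the 8-days-only share was 11.7% (5.99 to 19.97) of 94 regions, and the 4-days-only share 19.1% (11.8 to 28.6). Both intervals then included the backgrounds, 16.1% and 16.6%. Cdk6, a kinase of the G1 phase, had 1 and 7, and its region at chr5:3344402-3344702, 659 bp from a start site, was not called at 8 days off and was called in all 7 other lists, with 19.4 at 4 days off. Cdkn1a, the inhibitor p21, had 0 and 4, and Ccnd2, cyclin D2, 1 and 3 in the full lists but 4 and 2 with equal numbers.

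**Figure D4:**
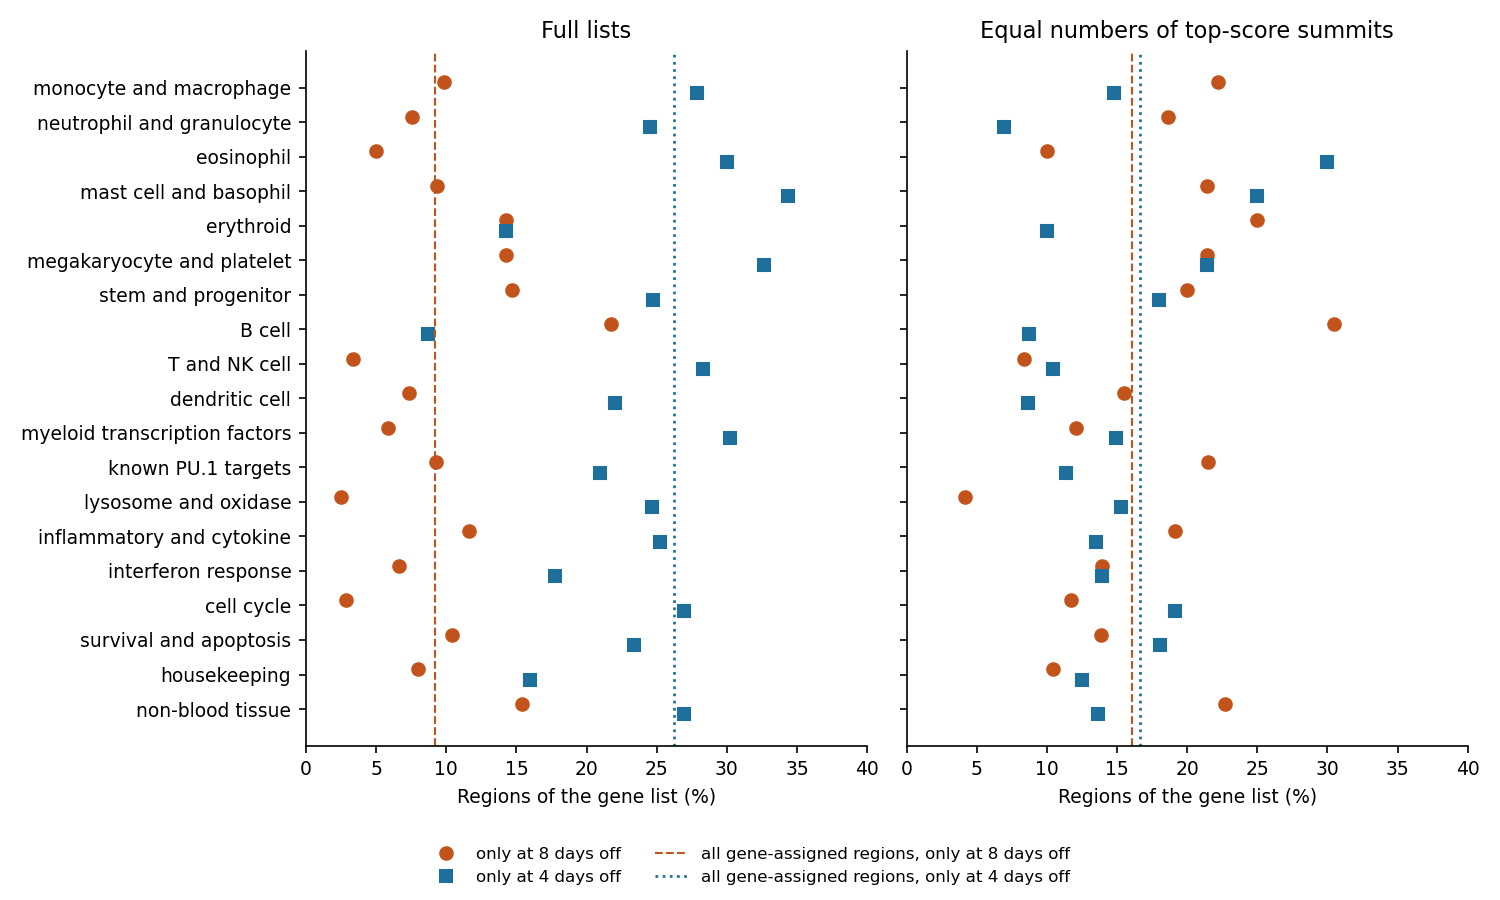
Share of the regions of each of 19 gene lists (rows) that were open only at 8 days off (orange circles) or only at 4 days off (blue squares), in % of the list's regions, from the full lists (left) and from equal numbers of summits (right). Lines mark the shares over all gene-assigned regions, 9.20% for 8 days and 26.2% for 4 days on the left and 16.1% and 16.6% on the right. Genes of lysosomes and oxidase lie at 2.47% and 4.17% for 8 days off, and the B cell list at 21.7% and 30.4%.

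For each of the other lists, the intervals of both shares included the backgrounds. These were 9.20% 8-days-only and 26.2% 4-days-only regions in the full lists, and 16.1% and 16.6% with equal numbers. Monocyte and macrophage genes had 6 8-days-only and 17 4-days-only regions of 61, and 12 and 8 of 54 with equal numbers. Neutrophil and granulocyte genes had 4 and 13 of 53, and 8 and 3 of 43 with equal numbers. Dendritic cell genes had 5 and 15 of 68, and 9 and 5 of 58, inflammatory and cytokine genes 12 and 26 of 103, and 17 and 12 of 89, and T and NK cell genes 2 and 17 of 60, and 4 and 5 of 48. For the first 4 of these lists the class with more regions was thus 4-days-only in the full lists and 8-days-only with equal numbers. Stem and progenitor genes had 16 and 27 of 109, and 20 and 18 of 100. Erythroid genes had 3 and 3 of 21, and 5 and 2 of 20, mast cell and basophil genes 3 and 11 of 32, and 6 and 7 of 28, and megakaryocyte and platelet genes 7 and 16 of 49, and 9 and 9 of 42. Interferon response genes had 3 and 8 of 45, and 6 and 6 of 43, survival and apoptosis genes 8 and 18 of 77, and 10 and 13 of 72, housekeeping genes 4 and 8 of 50, and 5 and 6 of 48, and genes of non-blood tissues 4 and 7 of 26, and 5 and 3 of 22.

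Among the 10 genes with most regions on the 8-day side, by 8-days-only minus 4-days-only regions with equal numbers, were Sfi1, Chst11, Chd7, Zfp978, Prex1, Foxo1, Cnih3, Dpp6 and Nol4. Sfi1 (chr11:3131850-3203347), a centrosome gene, had 8 8-days-only and 0 4-days-only regions with equal numbers, and 7 and 2 in the full lists. Sfi1 has near copies elsewhere in the mouse genome and Zfp978 lies among similar zinc-finger genes, so reads there may be misplaced and both counts are uncertain. Chst11, a chondroitin sulfotransferase, had 8 and 0 with equal numbers but 5 and 5 in the full lists, and Prex1, a Rac activator of leukocytes, 8 and 2 but 3 and 7 in the full lists. Their place therefore depended on trimming the 4-day list. In the full lists Chd7 had 4 and 2, Zfp978 5 and 3, Cnih3, an accessory protein of glutamate receptors, 5 and 2, Dpp6, an accessory protein of potassium channels, 5 and 2, and Nol4 3 and 0.

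The genes at the other end were Slc24a3, Nfatc1, Elmo1, Zfp469, Zfat, Lrba, Psd3, Pde4d, Tbc1d22a and Prkcq. Slc24a3 (chr2:145167775-145642166), a sodium-calcium-potassium exchanger, had 1 8-days-only and 12 4-days-only regions of 28 in the full lists and 1 and 9 with equal numbers. Of the 12, 8 were open at day 8 on Dox, 8 at day 12, 7 in CD11b-high cells, 2 at day 0 and 3 at 12 days off. Over all 4-days-only regions, 44.0% were open at day 8, 25.2% at day 12, 26.8% in CD11b-high cells, 19.2% at day 0 and 12.8% at 12 days off. Nfatc1, a calcium-dependent factor of lymphocytes and osteoclasts, had 1 and 9 in both comparisons, with scores of the 9 between 7.27 and 32.8. The highest was one of a pair of neighbours, 326 bp from the 8-days-only summit that scored 19.2. Elmo1, an engulfment and migration protein, had 0 and 9 of 16 regions. Of the 9, 6 were open at day 8, 4 at day 0 and 2 at day 12. Psd3, an exchange factor of Arf6, had 2 and 9 of 21 regions, with 6 of the 9 open at day 12 and 1 at day 0. Pde4d, a cAMP phosphodiesterase with a span of over a megabase, had 4 and 16, and Tbc1d22a 1 and 12. Prkcq, a protein kinase C of T cells, had 0 and 8, the zinc-finger genes Zfp469 and Zfat 0 and 9 and 0 and 8, and Lrba, a vesicle trafficking protein, 0 and 7.

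Single regions are given for the highest own scores among those with no summit of the other list within 1 kb. On the 8-day side, the region near Cd209a, a C-type lectin of dendritic cells (chr8:3754314-3754614, 5480 bp from the gene), scored 38.1 at 8 days off with no summit at 4 days off. On day 0 it had 44.1, on day 4 41.1, on day 8 13.1 and on day 12 15.5, and 12 days off Dox 24.2. The region inside Atf2, a leucine-zipper transcription factor (chr2:73867867-73868167), had 24.5 at 8 days off and was called in every list except 4 days off, with 2.59 at day 12 and 69.5 at day 4. The region near Ifngr2, an interferon-gamma receptor chain (chr16:91534532-91534832), had 25.8 at 8 days off, 22.2 at day 0 and 11.1 at 12 days off. It was also called at day 4 (21.7), day 8 (6.38) and in CD11b-high cells (11.1), and had no summit at 4 days off or day 12. The region in Slc39a8, a zinc transporter (chr3:135826440-135826740), differed from these at day 0, with 26.7 at 8 days off, calls at day 8 (20.5), day 12 (9.38) and in CD11b-high cells (12.7), and none at 4 days off, day 0 or 12 days off. The fifth was the Lpxn start site described above. All 5 were called at day 8, 4 at day 12, 4 in the CD11b-high sort and 4 at day 0.

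On the 4-day side 4 of the 5 regions with the highest score and no summit of the 8-day list within 1 kb are described. Of these 4, 1 was called at day 0, and all 4 were called at day 8, day 12 and in CD11b-high cells. A region with no protein-coding gene within 100 kb (chr10:98792370-98792670) had none at 8 days off and 26.5 at 4 days off, 31.0 at day 8, 18.6 at day 12 and 23.6 in CD11b-high cells, and was in no other list. The regions near Mfap3l (chr8:60714832-60715132) and in Arid5b, a DNA-binding protein (chr10:68193000-68193300), had none at 8 days off and 29.1 and 27.7 at 4 days off, and were called again at 12 days off with 7.92 and 8.03. The region near Hacd4 (chr4:88450160-88450460) had none at 8 days off and 27.2 at 4 days off and was called in all 6 other lists, with 4.14 at 12 days off and 33.2 at day 8.

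**Figure D5:**
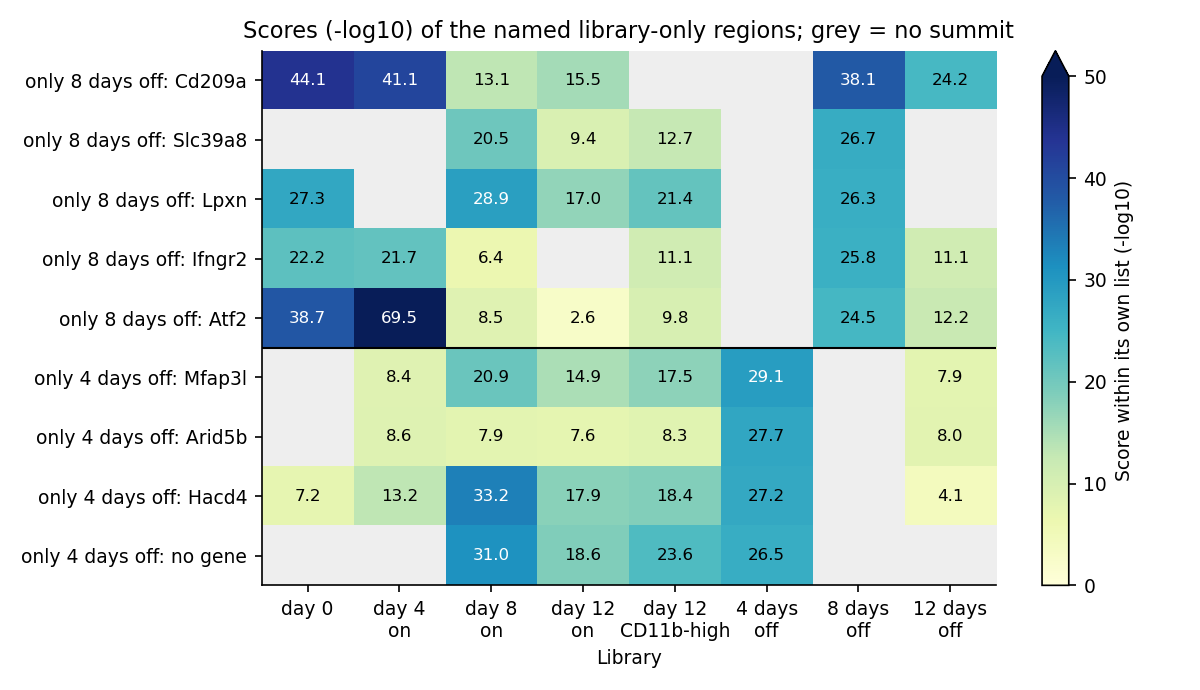
Scores (−log10, colour and printed value) of 8-days-only regions (upper rows, the 5 with the highest own score) and 4-days-only regions (lower rows, 4 of the 5 with the highest own score) that had no summit of the other list within 1 kb, in each of the 8 libraries (columns, in the order of the course), named by nearest gene; grey cells have no summit. Day 0 is filled in the upper rows except Slc39a8 and empty in the lower rows except Hacd4, while day 8 is filled in all 9 rows.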

How the data were processed

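The ATAC-seq data are deposited lists of summits, single bases that each carry a score. The submitters' processing notes name MACS2, Picard 2.14.0 and build mm10; no source used here gives the aligner or the read depth. The authors' score, as deposited, was taken to be −log10 of a q-value or p-value, since the smallest lies between 1.30 and 1.39 in each list, where 0.05 falls. Ranks and thresholds were taken within a list; scores of 1 region in several lists stand side by side with no comparison of their size. Each library had its own peak calls, and lack of a summit does not show that a region is closed. The labels' extraction text also mentions ChIP, and the libraries were taken as ATAC-seq from the series' title and library preparation.

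Summits were extended by 150 bp, merged where they overlapped, and given to the closest protein-coding gene up to 100 kb away, from RefSeq genes of GRCm38.p6. Start-site windows were at hand for 17470 of 21887 protein-coding genes on 20 chromosomes, with none for chromosome 18; distances to a start site also use those of long non-coding RNAs, and shares by distance from a start site leave that chromosome out. Of 297 listed genes, 295 matched. Members, lists and named genes were chosen with earlier results of these data known. Genes were named by a rule: the 10 at each end of 8-days-only minus 4-days-only regions with equal numbers, up to 3 members of each of 19 lists with most library-only regions, and 10 set genes. Of these, the text gives the ones it describes, some items are not reported here, and members named for other counts were chosen after their values were seen. The region rule was run on simulated lists whose sites lay far apart and whose paired summits lay closer than the merging limit. It put 9000 of 9000 sites in their class, which checks only that the code follows the rule. Neighbouring summits as in the real lists were not simulated, so the rate of misplaced regions was not measured. Python 3.11.15, NumPy 2.4.6, SciPy 1.17.1 and matplotlib 3.10.9 were used. Alternatives were a score of at least 10, equal numbers, extensions of 75 and 250 bp, leaving out regions near the other list's summits and, chosen after seeing the data, other lists of equal length.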

Additional observations from a re-analysis of the deposited data

Results flagged for a closer look

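On contigs other than chromosomes 1 to 19, X and Y, which no comparison used, the lists held 99 summits at 8 days off and 115 at 4 days off, for which the design gives no value to set them against. With 1 library per group, no sample could be set apart from others of its group.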

How the results depend on the processing

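No paired analysis was possible because each group holds 1 library. For 8-days-only, 4-days-only and shared regions, a score of at least 10 gave 2616, 8858 and 20997 regions, and equal numbers gave 8047 and 8234 library-only regions; leaving out library-only regions near the other list's summits left 3407 8-days-only ones. The shared share was 64.7% at a score of at least 10, 67% with equal numbers, 58.3% at 75 bp, 67.7% at 250 bp and 69.8% without near summits. In the following, the first share of each pair is of 8-days-only and the second of 4-days-only regions. At a score of at least 10 in both lists, day 0 held 74.4% and 54.0%, day 12 held 48.4% and 58.6%, and 12 days off held 64.1% and 46.1%. With equal numbers, day 0 held 38.6% and 24.9%, day 12 21.3% and 32.9%, and 12 days off 29.6% and 17.5%. At 75 bp, 23.1% of 8-days-only regions were open at day 12, and 29.5% and 14.3% at 12 days off. At 250 bp the shares were 33.5% and 18.5% at day 0, 24.7% and 11.4% at 12 days off, and 15.6% of 8-days-only regions were open at day 12. Without near summits, day 0 held 31.8% and 17.1%, day 12 10.8% and 23.8%, and 12 days off 21.4% and 9.80%. With other lists of equal length, an alternative chosen after seeing the data, they were 29.4% and 14.3% at day 0 and 18.3% and 21.1% at day 12. In these 7 settings, the main one included, the 8-days-only share was the higher by 13.7 to 20.3 points at day 0 and by 11.6 to 18.01 points at 12 days off, and its difference at day 12 lay between −13.0 and −2.09 points; the cause of these shifts was not tested. Depth is unknown, so a missing summit cannot be told from a region too thinly covered to be called.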
